A study of Mus musculus with 6 samples.

Results

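Fat cell differentiation and lipid storage were followed through 10 genes in stromal cells of mouse bone marrow: Pparg, Adipoq, Cfd, Lpl, Cd36, Apoe, Fabp4, Plin2, Plin1 and Cidec. They were taken by gene symbol, 10 of the 25491 genes in the table, and each symbol matched 1 gene. The cells were mesenchymal progenitor cells of the bone marrow of C57BL/6J mice aged 14 weeks. All mice, controls included, had received a sublethal 7 Gy of radiation, and the cells were taken 6 weeks later. The sort kept CD51+ cells lacking CD45, TER119, CD31, CD44 and SCA1; the first 3 of these are surface markers of white blood, red and endothelial cells. RNA was sequenced in 6 libraries: 3 of wild type, and 3 of Lama4-/-, without the gene for a laminin chain of basement membranes.

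Fat cells of the marrow arise from stromal progenitors. PPARG, a nuclear receptor that pairs with RXR, and the C/EBP proteins are the transcription factors that drive this differentiation, and many of the genes below are known targets of PPARG. Lipoprotein lipase frees fatty acids from circulating triglycerides, CD36 and FABP4 carry them into and through the cell, and perilipins and CIDEC coat the droplet in which they are stored. Marrow stroma that expresses the leptin receptor (LEPR) is also known to express Adipoq and Lpl without being filled with lipid, so these RNAs alone do not mark a mature fat cell.

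Library totals ran from 6263830 to 15663957 counts, and values below are CPM, the counts scaled to a common library total after TMM correction for differences in composition. Lama4 was at 45.4, 40.4 and 33.8 CPM in the wild type libraries, replicates 1 to 3, and had 0 counts in every Lama4-/- library, as the labels state. The series counts 3 mice of each genotype but no label ties a library to its own mouse; the p-values therefore reflect library-to-library spread, part of which could be technical. Sorted cells were read as bulk RNA, in which fewer cells of a type and less RNA per cell cannot be told apart. By their RNA the libraries were rich in bone and cartilage lineage genes: 10 osteoblast markers summed to 45211 to 57928 CPM in wild type and 32434 to 96552 in Lama4-/-, and 8 chondrocyte markers to 84802 to 126352 and 55890 to 107653 CPM. All 8 chondrocyte markers had a negative log2 fold change (median -1.06, or -0.52 after removal of the length trend described next), 6 without overlap, as had all 5 sort gate genes (median -0.94, or -0.48). Of all tested genes, 22.3% had no overlap between the genotypes, in either direction. Summed red cell markers (8 genes) ran from 259.6 to 1693 CPM in wild type and from 1376 to 3874 in Lama4-/-, and summed neutrophil markers (9 genes) from 27.4 to 109 and from 80.5 to 717. The shift between genotypes also moved with transcript length across all tested genes (Spearman's rho of -0.46 between length and log2 fold change; genes are not independent replicates), so fold changes whose sign depends on it are also given with that trend removed.

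The main result was that none of the adipocyte genes passed the test between genotypes. Lpl was the 1 gene of them whose libraries did not overlap, which is no more than the share over all tested genes given below. Of the 10 genes, 8 had enough counts to be tested, and 0 of the 8 had an adjusted p under 0.05 in edgeR's quasi-likelihood test, which called 1 of 14465 genes (0.00691%), Lama4 itself. At an unadjusted p under 0.05 edgeR counted 1 of the 8, Lpl, against 12.8% of all tested genes. DESeq2 called 0 of the 8 (it gave no adjusted p for Plin1 and Cidec), where it called 4.64% of the genes with an adjusted p. The authors' deposited table called 1, Lpl, where it called 6.63% of the genes with an adjusted p. The groups of libraries did not overlap for 1 of the 8 tested genes, Lpl, against 22.3% of all tested genes in either direction.

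**Figure D1:**
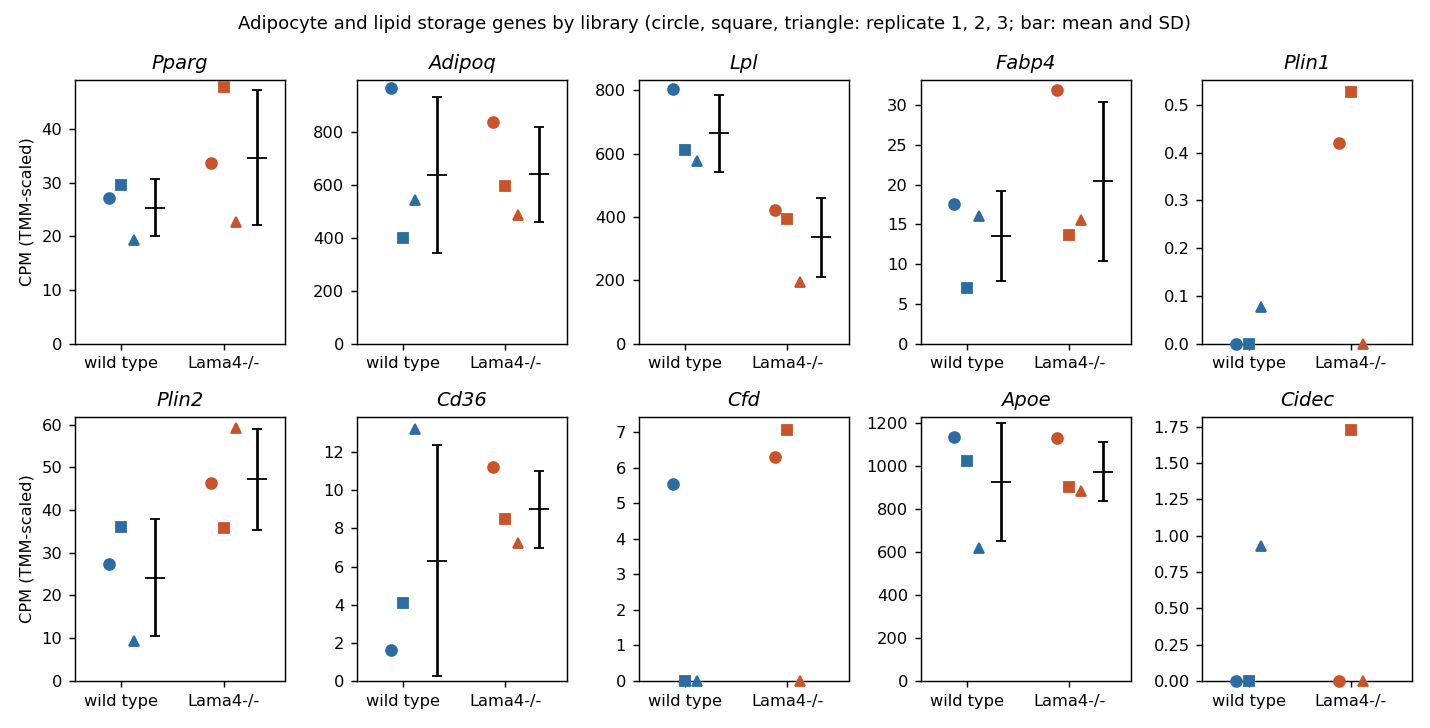
Each panel shows 1 gene, with TMM-scaled CPM on the vertical axis (linear, from 0) and genotype on the horizontal axis; circle, square and triangle are replicates 1, 2 and 3, and the bar is the mean with its SD (n = 3), left out for genes with a library at 0. Lpl is the panel in which all wild type libraries (577 to 803 CPM) lie above all Lama4-/- libraries (193 to 422 CPM); in the other panels the genotypes overlap.

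Pparg (ENSMUSG00000000440; GRCm38 chromosome 6, 115360951 to 115490399, plus strand) encodes the regulator that the other genes are ordered around. It was at 27.1, 29.6 and 19.4 CPM in wild type replicates 1, 2 and 3, and at 33.6, 47.8 and 22.6 CPM in Lama4-/- replicates 1, 2 and 3. The genotypes overlapped, with the lowest Lama4-/- library below 2 of the wild type libraries. Means were 25.4 ± 5.34 CPM (SD, n = 3) in wild type and 34.7 ± 12.6 in Lama4-/-, a log2 fold change of 0.45 (SE 0.35, 95% interval -0.37 to 1.27; edgeR adjusted p = 0.658). The interval includes both lower and higher levels in Lama4-/-.

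Promoter windows are printed here for 4 genes because the pathway runs from the factors to these starts: Pparg itself, Adipoq, which was abundant in every library, Plin2, which had the largest positive difference among the genes counted in every library, and Plin1, which was almost uncounted. Each is the 250 bases before an annotated start in RefSeq, build GRCm38.p6, written 5′ to 3′ in the direction of the gene; 8 of the 10 genes matched an entry. Capitals mark the C/EBP motif TTGCNNAA in Pparg and Plin1, the nuclear receptor core motif AGGTCA in Plin2, and the CCAAT box in Adipoq, each searched on both strands.
Pparg, 1 of its 3 annotated starts (chr6:115421816-115422065, plus strand): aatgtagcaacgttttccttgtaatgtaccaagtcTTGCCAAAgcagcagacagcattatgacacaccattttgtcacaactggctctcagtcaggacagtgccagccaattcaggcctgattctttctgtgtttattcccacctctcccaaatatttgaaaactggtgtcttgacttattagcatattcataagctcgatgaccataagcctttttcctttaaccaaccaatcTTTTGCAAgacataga
Adipoq (chr16:23146286-23146535, plus strand): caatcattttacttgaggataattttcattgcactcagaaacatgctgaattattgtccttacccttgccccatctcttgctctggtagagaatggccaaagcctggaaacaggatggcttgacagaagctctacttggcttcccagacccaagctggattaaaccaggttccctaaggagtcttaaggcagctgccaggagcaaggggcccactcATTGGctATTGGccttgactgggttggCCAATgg
Plin2 (chr4:86670060-86670309, minus strand): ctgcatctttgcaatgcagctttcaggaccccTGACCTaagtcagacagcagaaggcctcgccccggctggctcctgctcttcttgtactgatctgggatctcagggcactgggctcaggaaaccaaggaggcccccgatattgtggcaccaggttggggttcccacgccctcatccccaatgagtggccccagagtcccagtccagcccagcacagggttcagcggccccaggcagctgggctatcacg
Plin1 (chr7:79732777-79733026, minus strand): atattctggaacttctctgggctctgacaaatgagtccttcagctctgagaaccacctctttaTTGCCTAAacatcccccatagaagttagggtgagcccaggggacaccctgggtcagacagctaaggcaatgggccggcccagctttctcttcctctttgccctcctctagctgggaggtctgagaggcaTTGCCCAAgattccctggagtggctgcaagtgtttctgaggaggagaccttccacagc
The Pparg window held C/EBP matches starting 215 and 16 bases before the start, and the Plin1 window at 187 and 58 bases. The Plin2 window held the receptor core motif once, on the reverse strand 218 bases before the start, and the Adipoq window held CCAAT boxes at 34, 27 and 7 bases. The Pparg window shown is the one of its 3 with C/EBP matches; the other windows had 0. Of the 13 windows of these genes, 3 held the C/EBP motif, 4 the core motif and 5 a CCAAT box. Across all 32851 windows of this length the shares were 9.56%, 14.0% and 33.8%. The direct repeat of that core with 1 base between the copies, bound by PPARG with RXR, was in 0.0335% of all windows and in 0 of the 13 windows of these genes.  A match is a description of the letters and not a binding site.

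The secreted products came next. Adipoq (ENSMUSG00000022878; chromosome 16, 23146536 to 23158028, plus strand) encodes adiponectin, the hormone secreted by fat cells and by LEPR-positive marrow stroma. It was at 967, 399.9 and 543 CPM in wild type replicates 1 to 3 and at 839.6, 595 and 487 CPM in Lama4-/- replicates 1 to 3. The spread within a genotype was larger than any shift between them: the wild type libraries held both the highest and the lowest value. Means were 637 ± 295 and 640.4 ± 181 CPM (SD, n = 3), a log2 fold change of 0.01 (SE 0.36, 95% interval -0.83 to 0.84; edgeR adjusted p = 0.993). With the length trend removed the log2 fold change was -0.28, so its direction is not fixed by these data.

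Cfd (ENSMUSG00000061780; chromosome 10, 79890853 to 79892655, plus strand) encodes adipsin, complement factor D, a protease abundant in mature fat. It had 74, 0 and 0 counts in wild type replicates 1 to 3 and 105, 94 and 0 counts in Lama4-/- replicates 1 to 3, which is 5.53 CPM in the 1 wild type library and 6.30 and 7.07 CPM in the pair of Lama4-/- libraries with counts. The gene was thus either between 5.53 and 7.07 CPM or at 0, with libraries of each kind in both genotypes, and the 3 libraries with counts were the 3 highest in Adipoq. A count of 0 allows up to 3 counts, or 0.514 CPM in wild type replicate 2, 0.231 in wild type replicate 3 and 0.218 in Lama4-/- replicate 3, and such floors cover counting error only. The log2 fold change of 1.25 (SE 2.21, 95% interval -3.92 to 6.41; edgeR adjusted p = 0.871) has an interval too wide to give a direction. Without wild type replicate 1 that value was 8.81, a fitted value against a group at 0 and no bound.

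The genes of lipid uptake and transport followed here were Lpl, Cd36, Apoe and Fabp4, and among them Lpl alone had libraries that did not overlap. The wider list of uptake, transport and oxidation genes described below had 19 tested genes. Of these, 2 were lower in Lama4-/- without overlap and 4 were higher without overlap. Beside these counts, 22.3% of all tested genes had no overlap, in either direction. Lpl (ENSMUSG00000015568; chromosome 8, 68880491 to 68907448, plus strand) encodes lipoprotein lipase, which frees fatty acids from triglyceride-rich lipoproteins. It was at 803, 613 and 577 CPM in wild type replicates 1 to 3 and at 422, 393 and 193 CPM in Lama4-/- replicates 1 to 3. Every Lama4-/- library was below every wild type library, the nearest being 422 against 577 CPM, and Lama4-/- replicate 3 was the lowest. Means were 664 ± 121 CPM (SD, n = 3) in wild type and 336 ± 125 CPM in Lama4-/-, 1.98-fold lower, a log2 fold change of -0.98 (SE 0.31, 95% interval -1.72 to -0.25). The unadjusted p was 0.0155 and the edgeR adjusted p over 14465 genes was 0.289, so the difference did not pass the test. DESeq2 gave an adjusted p of 0.0573 and limma voom 0.206. In the authors' deposited table the shrunken log2 fold change was -0.89 with an adjusted p of 0.0460.

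Lpl kept its direction with the length trend removed, at -0.75. Over the 16 other settings tried the log2 fold change lay between -1.17 and -0.70, with adjusted p from 0.0573 to 0.615. Leaving the markers of macrophages, neutrophils, red cells and platelets out of the counts before scaling, a setting added after seeing the data, gave -0.98. That step takes out the marker genes alone and leaves the other RNA of those cells in. It cannot show what such cells add to or take from Lpl. Summed markers of LEPR-positive stroma (11 genes, led by Cxcl12) ran from 5012 to 11723 CPM in wild type and from 4457 to 7077 in Lama4-/-, 9 of the 11 lower on average in Lama4-/- with a median log2 fold change of -0.69 (-0.13 with the length trend removed); edgeR called 0 of them and DESeq2 4. Lepr itself, named after its values were seen as the gene that defines these cells, was at 361 ± 137 and 128 ± 52.2 CPM (SD, n = 3; log2 fold change -1.50, edgeR adjusted p = 0.249, DESeq2 adjusted p = 0.0147). The chondrocyte markers, as given above, were lower in Lama4-/- as Lpl was, and DESeq2 called 4 of the 8. Beside these calls in both marker lists, DESeq2 called 4.64% of all genes with an adjusted p. Wild type replicate 1, highest in Lpl, had the lowest chondrocyte sum of its genotype (84802 CPM). The part of these cell types in the lower Lpl was not tested.

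Cd36 (ENSMUSG00000002944; chromosome 5, 17781690 to 17888801, minus strand) encodes a fatty acid translocase that is also abundant on macrophages, endothelium and platelets. It was at 1.65, 4.11 and 13.2 CPM in wild type replicates 1 to 3 and at 11.2, 8.50 and 7.26 CPM in Lama4-/- replicates 1 to 3. The Lama4-/- values all lay inside the wild type range. Means were 6.32 ± 6.08 and 8.99 ± 2.03 CPM (SD, n = 3), with a log2 fold change of 0.51 (SE 0.78, 95% interval -1.31 to 2.32; edgeR adjusted p = 0.847). Single libraries moved this value: the log2 fold change was 1.67 without wild type replicate 3 and 0.06 without wild type replicate 1 (edgeR adjusted p = 0.660 and 0.989).

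Apoe (ENSMUSG00000002985; chromosome 7, 19696109 to 19699188, minus strand) encodes apolipoprotein E, which binds lipoproteins to their receptors and is made by fat cells, stroma and macrophages. It was at 1136, 1024 and 616 CPM in wild type replicates 1 to 3 and at 1131, 904 and 884 CPM in Lama4-/- replicates 1 to 3. The Lama4-/- libraries again lay inside the wild type range. Means were 925 ± 273 and 973 ± 137 CPM (SD, n = 3), a log2 fold change of 0.07 (SE 0.26, 95% interval -0.54 to 0.68; edgeR adjusted p = 0.940) that turned to -0.23 with the length trend removed.

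Fabp4 (ENSMUSG00000062515; chromosome 3, 10204088 to 10208576, minus strand) encodes the fatty acid binding protein of fat cells, found also in capillary endothelium and macrophages. It was at 17.5, 7.02 and 16.05 CPM in wild type replicates 1 to 3 and at 31.9, 13.7 and 15.5 CPM in Lama4-/- replicates 1 to 3. Lama4-/- replicate 1 was the highest and the other Lama4-/- libraries lay within the wild type range. Means were 13.5 ± 5.68 and 20.4 ± 10.04 CPM (SD, n = 3), a log2 fold change of 0.59 (SE 0.50, 95% interval -0.59 to 1.76; edgeR adjusted p = 0.693).

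Endothelial cells and macrophages also express Cd36, Apoe and Fabp4, and their markers were read beside them. Summed endothelial markers (10 genes in the table) ran from 15.97 to 28.6 CPM in wild type and from 7.62 to 19.6 in Lama4-/-, led by Ramp2 (12.8 ± 8.46 and 11.7 ± 5.04 CPM; SD, n = 3), and Cdh5, a defining endothelial cadherin, had 0 counts in all 3 Lama4-/- libraries. Summed macrophage markers (14 genes) ran from 379 to 544 CPM in wild type and from 284 to 492 in Lama4-/-, but most of that was Vcam1, which stroma also expresses; without it the sums ran from 71.8 to 90.2 and from 95.7 to 160 CPM, higher in every Lama4-/- library. Of the 10 macrophage markers tested, 7 had a positive log2 fold change, with a median of 1.62 (1.47 with the length trend removed). Lyz2, the lysozyme of macrophages and neutrophils, was at 16.8 ± 4.69 CPM in wild type and 66.4 ± 26.9 in Lama4-/- (SD, n = 3) without overlap (log2 fold change 1.97, edgeR adjusted p = 0.237, DESeq2 adjusted p = 0.000733). Csf1r, the macrophage growth factor receptor, was at or under 6.97 CPM in every library and Mrc1 was at 0 in 5 of the 6; these 2 and Cdh5 were named after their values were seen. Exons of Ramp2 overlap those of Vps25, a protein-coding gene, so the endothelial sum may hold reads of Vps25. Exons of Csf1r overlap those of Hmgxb3. The part of macrophages and endothelial cells in Cd36, Apoe and Fabp4 was not tested.

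The coat proteins of the lipid droplet fell into a gene counted everywhere and a pair almost absent. Plin2 (ENSMUSG00000028494; chromosome 4, 86648386 to 86670060, minus strand) encodes perilipin 2, which coats droplets in most cell types and not in fat cells alone. It was at 27.3, 35.96 and 9.34 CPM in wild type replicates 1 to 3 and at 46.4, 35.8 and 59.3 CPM in Lama4-/- replicates 1 to 3. The genotypes met at 1 point only, Lama4-/- replicate 2 lying just under wild type replicate 2. Means were 24.2 ± 13.6 and 47.1 ± 11.7 CPM (SD, n = 3), 1.96-fold higher in Lama4-/-, a log2 fold change of 0.97 (SE 0.49, 95% interval -0.17 to 2.10; unadjusted p = 0.0838, edgeR adjusted p = 0.462). The difference was about as large as that of Lpl and opposite in sign, with a larger error, and did not pass the test. It was 0.74 with the length trend removed, and the authors' deposited table gave a log2 fold change of 0.81 with an adjusted p of 0.244.

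Plin1 (ENSMUSG00000030546; chromosome 7, 79720218 to 79732903, minus strand) encodes perilipin 1, the coat protein of the large droplet of mature fat cells. It had 0, 0 and 1 counts in wild type replicates 1 to 3 and 7, 7 and 0 counts in Lama4-/- replicates 1 to 3. Cidec (ENSMUSG00000030278; chromosome 6, 113424634 to 113435760, minus strand) encodes the protein that fuses droplets into 1 large one. It had 0, 0 and 12 counts in wild type replicates 1 to 3 and 0, 23 and 0 counts in Lama4-/- replicates 1 to 3. Both were under the count filter and were not tested. Each was at 0 in libraries of both genotypes, and no difference was detectable in these libraries. The part of depth, or of the number of genes detected, in these zeros was not tested. Wild type replicate 2, at 6263830 counts, had counts for 18393 genes. Lama4-/- replicates 1 and 3, at 15663957 and 14068457 counts, had counts for 17072 and 16312 genes. The other libraries had 20069 (wild type replicate 1), 18539 (wild type replicate 3) and 18751 (Lama4-/- replicate 2). The defining coat genes of a mature fat cell were therefore at or near 0 in libraries in which Adipoq was counted at 399.9 to 967 CPM.

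**Figure D2:**
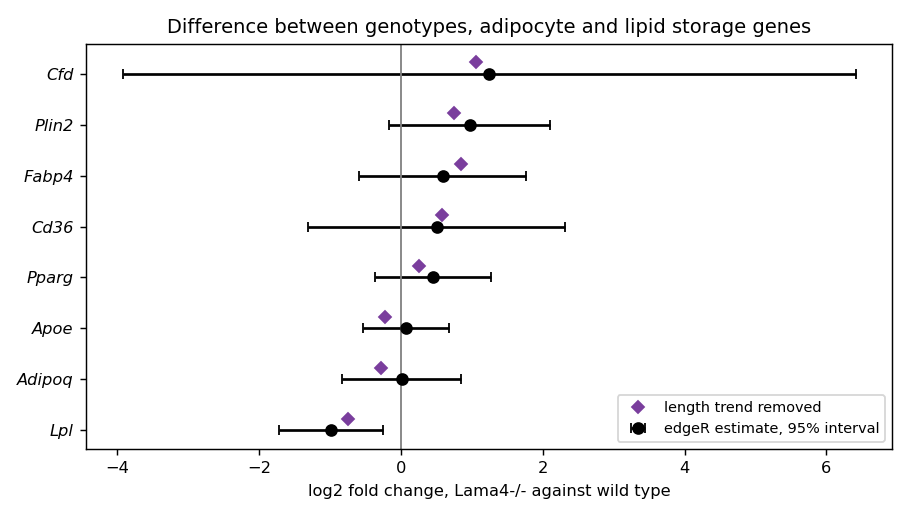
Points are the log2 fold change, Lama4-/- minus wild type, of the 8 tested genes in edgeR with all 6 libraries, with bars for the 95% interval, beside the value with the length trend removed. The interval of Lpl (-1.72 to -0.25) is the one that leaves out 0, and those of the other 7 genes include it.

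Levels of different genes were set side by side as CPM per kilobase of the longest annotated transcript. In wild type the order was Apoe at 657 ± 194 CPM per kilobase (SD, n = 3), Adipoq at 493 ± 228, Lpl at 161 ± 29.5, Plin2 at 12.8 ± 7.19, Pparg at 11.9 ± 2.51, Fabp4 at 3.20 ± 1.34, Cfd at 2.001 (counted in 1 library), Cd36 at 1.86 ± 1.79, Cidec at 0.179 and Plin1 at 0.00913 (each counted in 1 library). The wild type ranges of Apoe and Adipoq overlapped, as did those of Plin2 and Pparg. The ranges of Adipoq and Lpl did not, nor did those of Lpl and Plin2. Apoe, Adipoq and Lpl stood above 99.7%, 99.7% and 98.9% of the 25451 genes with a length, whereas Plin1 stood above 8.76%. Apoe, Adipoq and Lpl thus led the order, and Pparg and the droplet coat genes came after them. Per kilobase of the median annotated transcript the first 5 genes stood in the same order, at 1133, 696, 274, 34.3 and 27.7 CPM per kilobase in wild type.

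In Lama4-/- the first 5 genes kept this order per kilobase. Apoe was at 691 ± 97.6 CPM per kilobase (SD, n = 3), Adipoq at 496 ± 140, Lpl at 81.7 ± 30.3, Plin2 at 25.0 ± 6.22 and Pparg at 16.3 ± 5.94. The distance from Lpl down to Plin2 was the one that narrowed, since the mean of Lpl was lower and that of Plin2 higher. The place of Fabp4 depends on its length: its longest transcript has 4231 bases and the transcript with the longest coding sequence 896, and per kilobase of the latter it was at 15.1 ± 6.34 in wild type, overlapping Pparg and Plin2.

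**Figure D3:**
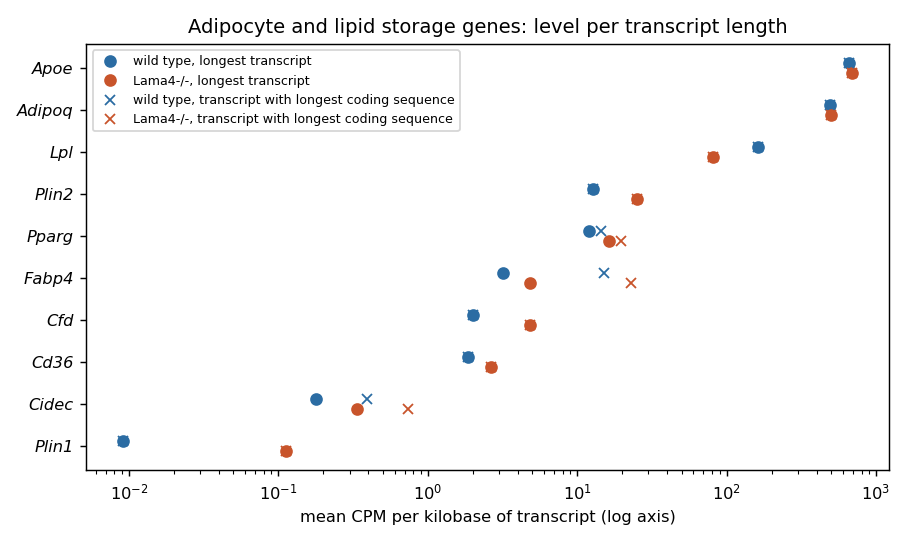
The horizontal axis, a log scale, gives the mean CPM per kilobase of each gene in each genotype (n = 3), circles for the longest transcript and crosses for the transcript with the longest coding sequence. Apoe, Adipoq and Lpl lie well to the right of the other genes in both genotypes, and Cidec and Plin1 lie at the left; the 2 marks of Fabp4 are the widest apart.

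Taken by direction, 7 of the 8 tested genes had a positive log2 fold change and 1, Lpl, a negative one, against 48.0% positive among all tested genes. Their median was 0.48, beside -0.04 for all tested genes. With the length trend removed 5 of the 8 were positive, since Adipoq and Apoe turned negative, and the median was 0.42 beside 0.02. These counts describe genes that mostly differed by less than the spread between libraries.

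Other genes of the pathway, 124 in 7 lists, were read in the same fit. Of these 111 were tested, and edgeR's quasi-likelihood test called 0. At an unadjusted p under 0.05 edgeR counted 24 (19 lower and 5 higher in Lama4-/-), against 8.34% lower and 4.45% higher of all tested genes. DESeq2 called 6 of the 122 it fitted, among them Fasn, Scd2 and Lrp1, lower in Lama4-/-, and Cebpb, higher. Beside this stands 4.64% of all genes with an adjusted p, a narrower base, since some of the 122 had no adjusted p. Fasn, with a mean of 112.9 CPM over all libraries, came just under Acly at 113.1, the last of the 3 most abundant of its list. It is named because of this count, after its values were seen. By direction 39 of the 111 were positive and 72 negative. Their median was -0.22, or -0.02 with the length trend removed.

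Fatty acid and triglyceride synthesis had the lowest median of the 7 lists before the length trend was removed. Of 16 tested genes, 13 were negative and 3 positive, with a median of -0.80; with the trend removed it was -0.26, and the transcription factors and repressors, each at -0.28, were then lower. Scd2, a desaturase that makes monounsaturated fatty acids, was at 328, 425.5 and 458 CPM in wild type replicates 1 to 3 and at 115, 255 and 111 CPM in Lama4-/- replicates 1 to 3. Its relative Scd1 was at 256, 327 and 303 CPM in wild type and at 117, 219.6 and 67.0 CPM in Lama4-/-. In both genes every Lama4-/- library was below every wild type library. Log2 fold changes were -1.33 for Scd2 and -1.14 for Scd1, and the edgeR adjusted p values were 0.238 and 0.321. With the length trend removed they were -0.80 and -0.74. Acly, the enzyme that supplies acetyl-CoA for the synthesis, was at 153 ± 56.9 and 73.5 ± 27.7 CPM (SD, n = 3) with overlapping libraries. Fasn, fatty acid synthase, was at 175 ± 31.5 CPM in wild type and 50.5 ± 15.1 in Lama4-/- (SD, n = 3), a log2 fold change of -1.79 (-0.74 with the length trend removed; edgeR adjusted p = 0.216, DESeq2 adjusted p = 2.65e-06).

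Uptake, transport and oxidation genes were balanced, with 11 of 19 positive and a median of 0.03. Angptl4, a secreted inhibitor of lipoprotein lipase and a known PPAR target, was the most abundant of them. It was at 268, 213 and 208 CPM in wild type replicates 1 to 3 and at 324, 307 and 391 CPM in Lama4-/- replicates 1 to 3. The genotypes did not overlap, in the direction opposite to Lpl. The log2 fold change was 0.57 (SE 0.19; unadjusted p = 0.0185, edgeR adjusted p = 0.302), so it too did not pass the test; it was 0.64 with the length trend removed. Acadl and Acadvl, dehydrogenases of fatty acid oxidation, were at 44.3 ± 3.82 and 37.2 ± 10.4 CPM in wild type and at 60.6 ± 13.5 and 53.6 ± 6.90 in Lama4-/- (SD, n = 3), with edgeR adjusted p of 0.491 and 0.472.

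Other droplet coat and lipolysis genes were mostly positive, 10 of 13 with a median of 0.23 (0.33 with the length trend removed). Aup1, a droplet-associated protein, was at 97.1 ± 6.51 and 137 ± 14.6 CPM (SD, n = 3) without overlap (log2 fold change 0.50, edgeR adjusted p = 0.324). Hilpda, an inhibitor of the lipase ATGL, was at 88.5 ± 15.2 and 115 ± 22.95 CPM, with overlap (edgeR adjusted p = 0.557). Rab18, a small GTPase of droplets, was at 142 ± 32.8 and 125 ± 21.1 CPM, with overlap (log2 fold change -0.18, and 0.53 with the length trend removed). The kit does not mark strand, so reads of overlapping genes cannot be told apart: exons of Aup1, Acadvl, Rab18 and Scd2 overlap other annotated genes, as do those of Cebpa, Cebpb, Cebpd, Foxo1, Ctnnb1 and Irs2 below. The same holds for Vcam1, Ramp2 and Csf1r above. Exons of the 10 genes themselves overlap none.

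The adipogenic transcription factors besides Pparg were mostly negative, 15 of 18 with a median of -0.42 (-0.28 with the length trend removed). That list also holds Foxo1, described below as a restraint on differentiation, which is counted among the 15. The highest value was that of Cebpb, an early factor that acts before Pparg, at 23.9, 22.9 and 11.96 CPM in wild type replicates 1 to 3 and at 134, 299.9 and 495 CPM in Lama4-/- replicates 1 to 3. Every Lama4-/- library was above every wild type library, with a log2 fold change of 3.99 (SE 0.53). The edgeR adjusted p of 0.192 did not pass and the DESeq2 adjusted p of 2.02e-13 did. Exons of Cebpb overlap those of Tmem189. Cebpa, the factor that works together with PPARG in fat cells, was at 25.2 ± 11.5 and 22.3 ± 5.14 CPM (SD, n = 3; edgeR adjusted p = 0.914), and Cebpd was at 153 ± 12.3 and 148 ± 17.7 CPM (log2 fold change -0.05, edgeR adjusted p = 0.941; 0.12 with the length trend removed). Foxo1, a forkhead factor that restrains fat cell differentiation early, was at 252 ± 22.1 and 162 ± 25.9 CPM without overlap, and its log2 fold change of -0.64 (edgeR adjusted p = 0.263) became 0.31 once the length trend was removed. Myeloid cells also express Cebpb, and the summed neutrophil markers were 717, 669 and 80.5 CPM in Lama4-/- replicates 1 to 3, lowest in the replicate in which Cebpb was highest; their part in the Cebpb value was not tested.

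Repressors of adipogenesis were negative in 10 of 14 tested genes, with a median of -0.48 (-0.28 with the length trend removed). The most abundant of them differed little: Ctnnb1, encoding beta-catenin, was at 380.5 ± 95.2 and 339 ± 27.5 CPM (SD, n = 3), Klf2 at 219.7 ± 8.96 and 196 ± 22.8, and the Notch target Hes1 at 145 ± 8.12 and 156 ± 1.74 (log2 fold change 0.10, and -0.19 with the length trend removed). Lipoprotein and cholesterol handling genes were negative in 11 of 16, with a median of -0.28 that was 0.01 with the length trend removed. Lrp1, a receptor for APOE-bearing lipoproteins, was at 667, 585 and 1168 CPM in wild type and at 306, 414 and 278 CPM in Lama4-/-, without overlap (log2 fold change -1.28, edgeR adjusted p = 0.237). That difference was 0.05 with the length trend removed; Lrp1 has a transcript of 14888 bases. Npc2, a lysosomal cholesterol carrier, was at 166 ± 17.8 and 222 ± 19.9 CPM (SD, n = 3) and Lrpap1, the chaperone of LRP1, at 182 ± 39.1 and 199 ± 16.2. Adipokines and hormone receptors were negative in 12 of 15, with a median of -0.34 (-0.07 with the length trend removed). Adipor1, an adiponectin receptor, was at 237 ± 40.03 and 280.5 ± 33.4 CPM, Vegfa at 249.8 ± 80.8 and 203 ± 29.04, and Irs2, an insulin receptor substrate, at 217 ± 32.8 and 166 ± 12.7 (log2 fold change -0.39, and 0.33 with the length trend removed).

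**Figure D4:**
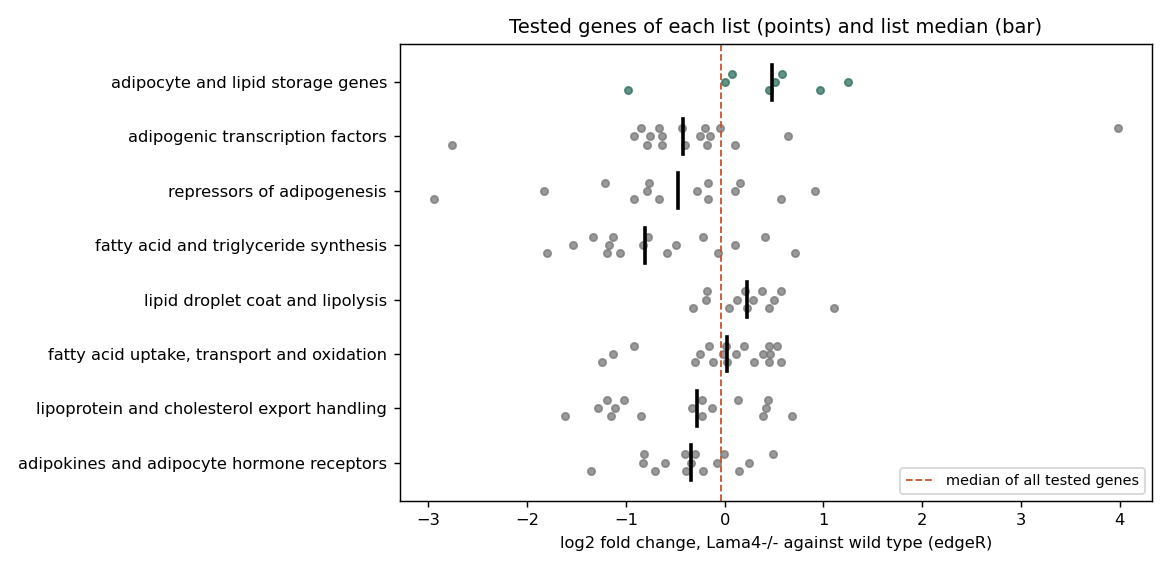
Each row is a gene list and each point a tested gene, with its log2 fold change, Lama4-/- minus wild type, on the horizontal axis and a bar at the median of the list; the dashed line is the median of all tested genes (-0.04). The 8 adipocyte and lipid storage genes lie mostly right of 0 with Lpl at the left, and the synthesis list lies mostly left of 0 around its median of -0.80.

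Across the 6 libraries the level of Adipoq was compared with the other 9 genes and with Lepr and Cxcl12, 11 relations on log2 CPM, and none passed the adjustment. The closest were Cfd, with a Pearson's r of 0.81 (exact permutation p = 0.1, adjusted p = 0.55), and Fabp4, with an r of 0.76 and a Spearman's rho of 0.77 (exact permutation p = 0.0736, adjusted p = 0.55; r = 0.80 without wild type replicate 1 and Lama4-/- replicate 1, which lay farthest from the Adipoq median). Lpl gave 0.34, Pparg 0.18 and Plin2 -0.003. The 3 genes most like Adipoq, by the smallest root mean square difference of centred log2 CPM over the 6 libraries among 10648 genes of at least 5 CPM, were Ccdc34 (0.087), Rbx1-ps (0.108) and Prr13 (0.110). On that measure Apoe came 1013th at 0.403 and Fabp4 1100th at 0.411, while Lpl came 5080th and Plin2 8510th; the median gene was at 0.665.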

How the data were processed

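Per the labels' protocols, cDNA of the sorted cells was made with SMART-Seq v4, a kit that does not mark strand, and read in single-end runs of 75 bp. The submitters' processing notes name STAR 2.6.1d, featureCounts, Subread and DESeq2 with builds GRCm38 and mm10, without parameters. The authors deposited 1 table of 25491 genes. Its block headed normalized holds whole numbers with unequal totals and was used as the deposited raw counts. Its block headed raw is a deposited signal, those counts times a constant per library (0.708 to 1.98), and was not tested. The other columns are, per the file headers, the authors' DESeq2 Wald test: a mean signal, a shrunken log2 fold change with its standard error, a Wald score, a p-value and an adjusted p-value, which is NA for 15311 genes and left so.

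In R 4.3.3, counts were kept with filterByExpr (14465 genes), scaled with TMM and compared between genotypes, 3 libraries against 3, in edgeR 4.0.16 (quasi-likelihood F test, robust), with p-values adjusted by Benjamini-Hochberg over those genes and a threshold of 0.05. The common dispersion was 0.393. Alternatives were DESeq2 1.42.0, limma 3.58.1 voom with quality weights, other scalings, filters and moderation, a block by replicate number, leaving out each library, and a length trend removed as an offset (lowess of log2 deviation on log10 transcript length, span 0.3). No pair of libraries of a genotype agreed within sampling noise. In counts simulated for this comparison (13612 genes), edgeR recovered 4 of 50 genes changed 2-fold, 31 of 50 changed 4-fold and 73 of 100 changed 16-fold. There were 2 false calls, and differences of 2-fold are mostly missed at this size. The many planted changes make the adjusted threshold easier to pass than in these data, where edgeR called 1 gene. Recovery of larger changes may therefore be lower here. Of the gene identifiers, 25451 (99.8%) were in the GENCODE annotation of GRCm38, which gave positions, overlaps and lengths.

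The 10 genes, the lists and the tests were chosen with earlier results of these data known. Genes named besides the 10 were the 3 most abundant of each pathway list, Cebpa and Cebpb, Lama4, the 2 most abundant of each marker list as far as a result turned on them, and the 3 most like Adipoq; genes named after their values were seen are marked so. Some genes of the pathway lists that DESeq2 called are not reported here.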

Additional observations from a re-analysis of the deposited data

How the results depend on the processing

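Across 128 alternative values of the 8 tested genes, 121 kept their direction, 7 turned, and 0 passed an adjusted p of 0.05; no alternative, DESeq2 and limma voom included, called any of the 10 genes, whereas the authors' deposited table calls Lpl. The turned values were small: Adipoq was at -0.28 and Apoe at -0.23 with the length trend removed, and leaving out single libraries gave -0.24 to 0.45 for Adipoq and -0.15 to 0.26 for Apoe. The count over all genes, 1 with edgeR, was 741 with DESeq2 and 12 with no filter, and 0 with upper-quartile scaling, limma voom, no robust moderation, the replicate block or the length trend removed; leaving out each library gave 0 to 1. The pathway lists, 0 with edgeR, had 2 calls with no filter (Fasn and Cebpb) and 6 with DESeq2. Why the tools differ was not tested. Samples with the same replicate number share only a number: their deviations correlated at 0.0400, 0.132 and 0.0539, each library best with its own number, a hint from the data only, and the block called 0 genes.

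Without wild type replicate 1 and Lama4-/- replicate 1, the correlation with Adipoq turned to -0.18 for Lpl, 0.82 for Cd36, -0.52 for Apoe, 0.88 for Cidec, -0.46 for Lepr and -0.57 for Cxcl12, so these relations rest on those libraries. Plin1, Cidec and Cfd had libraries at 0, deep ones among them, and counting error limits what can be said of their levels.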

Other observations

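Ratios of the genes' counts within a library do not depend on scaling. They were chosen after the values were seen, 5 ratios in all, and 3 libraries against 3 cannot go below an exact two-sided permutation p of 0.1. Counts of Lpl per count of Adipoq were 0.830, 1.53 and 1.06 in wild type replicates 1 to 3 and 0.503, 0.660 and 0.397 in Lama4-/- replicates 1 to 3, so every wild type library was above every Lama4-/- library (exact permutation p = 0.1, adjusted p = 0.25). Counts of Plin2 per count of Lpl were 0.0340, 0.0587 and 0.0162 in wild type and 0.110, 0.0912 and 0.306 in Lama4-/-, also without overlap (exact permutation p = 0.1, adjusted p = 0.25). Lpl is in both ratios and Plin2 was taken for its opposite sign, so the second is no separate observation. The ratios to Adipoq overlapped for Fabp4 (exact permutation p = 0.2), Plin2 (exact permutation p = 0.3) and Apoe (exact permutation p = 1.0).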
